A study of Mus musculus with 8 samples.

Results

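Wnt ligand mRNA was followed by RNA sequencing in MOE cells, a murine oviductal epithelial line of FVB background. The oviduct is the mouse counterpart of the fallopian tube. Cells were plated on 3D collagen gels (4 libraries) or on 2D collagen (4 libraries) and kept for 6 h in medium without EGF, which is a growth factor. Cells of both groups had first been grown to confluence and collected with trypsin. The labels give neither a clone, a passage nor separate cultures, so the p-values below measure library-to-library spread, part or all of which may be technical. The ligands are the 10 genes Wnt4, Wnt5a, Wnt5b, Wnt6, Wnt7a, Wnt7b, Wnt9a, Wnt10a, Wnt10b and Wnt11, picked by symbol among 23337 gene symbols. They were chosen with earlier results of these data known. The mouse ligand family has 19 genes in the table, and the other 9 are described with the rest of the pathway.

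Wnt proteins are secreted signals that carry a lipid, added in the endoplasmic reticulum by the acyltransferase Porcupine and handed to the carrier Wntless for export. At the receiving cell they bind a Frizzled receptor together with a coreceptor. With Lrp5 or Lrp6 this stabilises beta-catenin, which switches on genes with TCF and LEF factors, and other ligand and receptor pairs act on cell polarity and the cytoskeleton without beta-catenin. In the mouse, Wnt4 is needed for the Müllerian duct, from which the oviduct arises, to form. Wnt7a is made by the epithelium of that duct and is needed for the oviduct and uterus to take their shape, and Wnt5a in the mesenchyme is needed for the lower tract to grow out.

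Wnt7a and Wnt7b are close relatives. Their coding sequences (GENCODE release M21, GRCm38) were identical at 807 of 1037 aligned bases, or 77.8%, so it matters whether reads of the abundant Wnt7b could be counted as Wnt7a. The stretch below holds the longest run the pair shares, 23 bases, and codes for the region around the serine that receives the lipid. It spans coding bases 580 to 662 of Wnt7a (chr6:91366237-91366319, minus strand) and 601 to 683 of Wnt7b (chr15:85537777-85537859, minus strand). Capitals mark the 13 of 83 bases that differ.
Wnt7a: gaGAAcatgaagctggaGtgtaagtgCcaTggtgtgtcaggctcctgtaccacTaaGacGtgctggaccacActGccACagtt
Wnt7b: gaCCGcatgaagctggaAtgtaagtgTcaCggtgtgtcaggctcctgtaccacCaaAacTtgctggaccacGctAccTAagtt
No stretch of 50 bases occurred both in a Wnt7a transcript and in any other gene of the annotation, and the same held for Wnt9a, Wnt5b, Wnt6, Wnt10a and Wnt10b. In Wnt4, 4.33% of such stretches were shared with other genes, and in Wnt7b 3.88%, in no case with another Wnt gene. The antisense gene model AU022754 overlaps 6.61% of the exonic bases of Wnt7b. Because the strand setting of the counting is not given, reads from that overlap cannot be told apart.

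The promoters of 3 of the 4 ligands that moved together below were in the RefSeq table (GRCm38.p6), and that of Wnt7b was not. The bases shown lie upstream of the starts in RefSeq and in GENCODE, read in the direction of transcription, at chr4:137277385-137277488 (plus) for Wnt4, chr6:91411364-91411603 (minus) for Wnt7a and chr11:59306680-59306848 (plus) for Wnt9a. Capitals mark GC boxes, GGGCGG or its complement CCGCCC, with overlapping matches counted.
Wnt4: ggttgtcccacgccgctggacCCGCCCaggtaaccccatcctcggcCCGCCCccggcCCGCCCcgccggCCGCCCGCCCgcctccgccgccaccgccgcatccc
Wnt7a: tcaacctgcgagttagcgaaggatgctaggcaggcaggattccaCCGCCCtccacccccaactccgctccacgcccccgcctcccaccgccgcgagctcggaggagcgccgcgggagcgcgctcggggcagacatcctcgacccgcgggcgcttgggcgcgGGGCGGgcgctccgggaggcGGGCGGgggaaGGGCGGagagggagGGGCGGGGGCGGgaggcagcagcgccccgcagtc
Wnt9a: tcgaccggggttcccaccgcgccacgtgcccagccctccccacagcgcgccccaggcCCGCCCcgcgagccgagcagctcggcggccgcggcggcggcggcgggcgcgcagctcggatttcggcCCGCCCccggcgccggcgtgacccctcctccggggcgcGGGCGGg
These stretches hold 5, 6 and 3 GC boxes in the order Wnt4, Wnt7a and Wnt9a, and the whole windows (250 bases before to 50 after the start) hold 8, 6 and 5. Of 32851 such windows in the mouse, 35.7% hold at least 1. The 3 windows are rich in G and C, at 84.3% for Wnt4, 76.0% for Wnt7a and 83.3% for Wnt9a, where the median window has 52.7%. They hold 51, 42 and 58 CpG pairs against a median of 7. On both strands, none of the 3 windows held the TCF and LEF motif CTTTGA (in 16.0% of all windows), the TEAD motif GGAATG (14.7%), the AP-1 motif TGANTCA (7.81%), the TATA box TATAAA (13.6%) or a CArG box (1.63%), so no GC box overlapped another of these motifs.

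The libraries held 15692699 reads (2D replicate 4) to 25862036 reads (2D replicate 3), and 14064 to 14598 genes were detected in each. The secretory marker Pax8 stood at 441 to 566 CPM (reads scaled to a common library size), and the keratins Krt7, Krt8, Krt18 and Krt19 were high. Some defining markers were near 0, however, with Epcam at most 1.26 CPM, Cldn3 at most 0.303 CPM and the secretory product Ovgp1 at most 1.37 CPM. Cdh1 reached 5.23 CPM, and Cldn4 stood at 16.8 to 77.1 CPM. Of the other secretory markers, Wt1 stood at 38.0 to 94.5 CPM and Esr1 at 11.0 to 31.7 CPM. Transcripts of other tissues stood apart in 3 libraries. The summed CPM of 12 intestine genes was 15.8, 13.7, 2.25 and 1.85 in 3D replicates 1 to 4, against 2.33, 29.1, 4.76 and 4.65 in 2D replicates 1 to 4. The summed CPM of 8 liver genes was 27.7, 3.11, 1.26 and 0.272 in 3D replicates 1 to 4, against 1.92, 23.0, 7.39 and 2.23 in 2D replicates 1 to 4. Fits were therefore repeated without the 3 libraries above 10 CPM of intestine transcripts (3D replicates 1 and 2 and 2D replicate 2). Their values are given beside the limma results of the tested ligands and the called pathway genes. For the ligands, values are also given without the 2 libraries above 10 CPM of liver transcripts (3D replicate 1 and 2D replicate 2). That alternative was chosen after seeing the data. No such values are given for ligand shares, ligand ratios or marker genes.

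Cells on 3D collagen had less mRNA of each of the 4 Wnt ligands that were abundant enough to test. The mean of Wnt7a on 3D collagen was 6.60% of that on 2D collagen, that of Wnt7b 29.1%, that of Wnt9a 30.5% and that of Wnt4 53.6%. The other 6 ligands had few reads or none. All 4 tested ligands passed the test as lower and 0 as higher, where 3.39% of the 11820 tested genes were called lower and 2.33% higher (limma, Benjamini-Hochberg adjusted p under 0.05). The other tools also gave 4 lower and 0 higher. Of all genes edgeR called 3.18% lower and 2.72% higher, and DESeq2 7.37% lower and 5.99% higher. In all 4 ligands every 3D library lay below every 2D library, as in 10.4% of all tested genes, while 8.05% had every 3D library above every 2D library. Wnt7a passed the filter on low values (10 or more normalized counts in 4 or more libraries) only through its 2D libraries, so its place in these counts carries no weight. The members were chosen with earlier results of these data known, so these counts describe them and are not independent support. In bulk RNA, fewer cells that make a ligand and less mRNA per cell cannot be told apart.

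**Figure D1:**
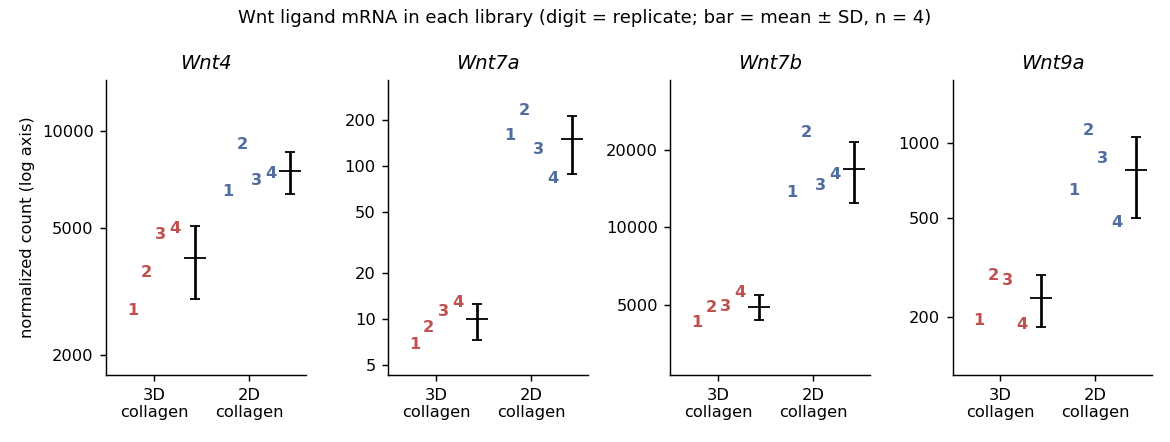
Normalized counts of Wnt4, Wnt7a, Wnt7b and Wnt9a on log axes of different range, with 3D collagen on the left and 2D collagen on the right of each panel. Each digit is the replicate number of a library and the bar is the mean ± SD of 4 libraries. In each panel all 3D libraries lie below all 2D libraries, and 2D replicate 2 is the highest.

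Wnt7a (ENSMUSG00000030093, chr6:91363981-91411363, minus strand, mm10), the Müllerian epithelial ligand, had 6.79, 8.73, 11.2 and 12.8 normalized counts in 3D replicates 1 to 4. Its 2D replicates 1 to 4 had 159, 229, 127 and 83.3. These values rest on 42 reads in the 4 3D libraries together and 584 in the 4 2D libraries. The means were 9.88 ± 2.65 on 3D collagen and 150 ± 61.4 on 2D collagen (SD, n = 4 each); the groups were far apart, with all 3D libraries under 13 and all 2D libraries over 83. Because Wnt7a passed the filter only through its 2D libraries, the p-values given here carry no weight as support. The log2 fold change was −3.73 (SE 0.37, 95% interval −4.55 to −2.91, limma adjusted p = 0.00160). Without the 3 libraries high in intestine transcripts it was −3.21 with an adjusted p of 0.0530 (limma, 2 3D against 3 2D libraries). Without the 2 libraries high in liver transcripts it was −3.35 (adjusted p = 0.00747).

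Wnt7b (ENSMUSG00000022382, chr15:85535437-85582473, minus strand), known in the mouse for roles in the growing lung and kidney, was the most abundant ligand on 2D collagen. Its normalized counts were 4254, 4896, 4940 and 5577 in 3D replicates 1 to 4, against 13596, 23393, 14549 and 16100 in 2D replicates 1 to 4. The 3D libraries were close together, and 2D replicate 2 stood above the other 2D libraries. The means were 4917 ± 541 on 3D and 16910 ± 4444 on 2D collagen (SD, n = 4 each), and the log2 fold change was −1.75 (SE 0.19, 95% interval −2.19 to −1.32, limma adjusted p = 0.00280). Of all tested genes 50, or 0.423%, were called with a log2 fold change at least as low. Without the 3 libraries the log2 fold change was −1.49 and the limma adjusted p 0.0530, and without the 2 high in liver transcripts these were −1.52 and 0.00747.

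Wnt9a (ENSMUSG00000000126, chr11:59306928-59333552, plus strand), known for its part in joint formation, had 194, 292, 280 and 186 normalized counts in 3D replicates 1 to 4. In 2D replicates 1 to 4 it had 646, 1128, 865 and 482. The spread among 2D libraries was wide, and still the lowest of them lay above the highest 3D library. Means were 238 ± 56.1 on 3D and 780 ± 280 on 2D collagen (SD, n = 4 each). The log2 fold change was −1.67 (SE 0.29, 95% interval −2.31 to −1.02, limma adjusted p = 0.0151). The adjusted p was 0.0516 without 3D replicate 1, where the log2 fold change was −1.58, 0.128 without the 3 libraries, where it was −1.50, and 0.0551 without the 2 high in liver transcripts, where it was −1.38 (limma).

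Wnt4 (ENSMUSG00000036856, chr4:137277489-137299726, plus strand), the ligand needed for the Müllerian duct, had the smallest change of the tested ligands. It had 2753, 3612, 4743 and 4974 normalized counts in 3D replicates 1 to 4, against 6483, 9077, 7036 and 7393 in 2D replicates 1 to 4. The highest 3D libraries came close to the lowest 2D library, without overlap. Means were 4020 ± 1033 on 3D and 7497 ± 1118 on 2D collagen (SD, n = 4 each). The log2 fold change was −0.93 (SE 0.21, 95% interval −1.40 to −0.45, limma adjusted p = 0.0360). This call was the least firm of the 4. It was lost when any library other than 3D replicate 4 was left out (log2 fold changes −1.02 to −0.76, limma adjusted p 0.0507 to 0.114), and without the 3 libraries the log2 fold change was −0.52 (adjusted p = 0.242), and without the 2 high in liver transcripts −0.66 (0.0952). It was also lost with library size as the only scaling (−0.75, adjusted p = 0.0819), a setting that called 2.69% of all genes lower and 4.21% higher and raised the median log2 fold change of the whole table by 0.17, and after correction for transcript GC content (−0.74, adjusted p = 0.0623).

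Few marker genes were called in the same fit, where 3.39% of all tested genes were called lower and 2.33% higher. None was called among the 5 tested secretory, 1 endothelial, 4 intestine and 2 liver genes. Of the 5 tested genes of the epithelial list 1 was called lower, Krt8. It had 1006 to 1223 CPM on 3D and 1427 to 1884 CPM on 2D collagen (log2 fold change −0.76, limma adjusted p = 0.0397). The ciliated list summed to 243 to 413 CPM on 3D and 356 to 706 CPM on 2D collagen, with 0 of 3 tested genes called. Its log2 fold changes were −1.70 for the ciliary regulator Foxj1 (limma adjusted p = 0.0706) and −0.91 for the tubulin Tubb4b (0.0928). The third tested gene, Rsph1, went the other way, at 0.44 (limma adjusted p = 0.337). The smooth muscle list had a summed level of 242 to 890 CPM on 3D and 434 to 2158 CPM on 2D collagen, nearly all of it Acta2. Of its 4 tested genes 1 was called, Lmod1, as lower. Myh11, the defining myosin of smooth muscle, was at most 1.22 CPM. The immune list, mostly the lysosomal gene Cd68, summed to 18.7 to 30.5 CPM on 3D and 7.14 to 18.5 CPM on 2D collagen. Only 1 of its 5 measured genes, Cd68, could be tested, and it was not called. The leukocyte marker Ptprc was at most 0.210 CPM. Of the 3 tested genes of the stromal list 1 was called, Pdgfra, which was higher on 3D collagen at under 1 CPM in all 8 libraries. Pdgfra passed the filter on low values only through its 3D libraries, and Lmod1 only through its 2D libraries. The calls of both genes therefore carry no weight as support. The part of Krt8, Foxj1, Tubb4b, Rsph1, Acta2, Lmod1, Cd68 and Pdgfra in the ligand values was not tested.

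The 6 other members were too low to test, and reads are given for them. Wnt5a, the mesenchymal ligand of the lower tract, had 2 reads in 3D replicate 1 and none in the other 7 libraries. Wnt10a, a ligand of tooth and skin appendages, had no read in any library, and 3 reads in all 8 libraries together would be 0.0191 CPM. Wnt5b, the close relative of Wnt5a, had 12, 2, 7 and 2 reads in 3D replicates 1 to 4, against 3, 5, 9 and 2 in 2D replicates 1 to 4. Wnt6, which takes part in the formation of epithelial tubules, had 2, 4, 3 and 1 reads in 3D libraries and 1, 12, 6 and 1 in 2D libraries. Such low values varied widely within each group. Wnt10b, known for holding back fat cell formation, had 1, 8, 2 and 9 reads in 3D libraries and 11, 3, 8 and 4 in 2D libraries. Wnt11, a ligand of the ureteric bud, had 8, 8, 4 and 1 reads in 3D libraries and 12, 2, 7 and 1 in 2D libraries, and the pseudogene Gm8398 overlaps 8.80% of its exonic bases. The groups overlapped in each of the 6. In a limma fit without the filter, which called 2.04% of 16698 genes lower and 1.5% higher, the adjusted p of the 5 ligands with reads ranged from 0.643 for Wnt10b to 0.983 for Wnt5b. A difference in these genes was not detectable at this depth.

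The make-up of the ligand mRNA differed between the groups as well as its amount. Per length, in RPKM (reads per kilobase of exon, scaled to library size), the 19 ligand genes summed to 113 ± 26.5 on 3D and 266 ± 33.9 on 2D collagen (SD, n = 4 each). The sum ran from 80.5 to 142 RPKM in 3D libraries and from 238 to 312 RPKM in 2D libraries. Wnt7b and Wnt4 together made up most of it in every library. Wnt4 accounted for 41.0%, 43.9%, 50.6% and 49.6% of the sum in 3D replicates 1 to 4, against 33.8%, 29.4%, 33.8% and 33.7% in 2D replicates 1 to 4. The share of Wnt7b was 49.5 ± 3.95% on 3D and 62.0 ± 2.23% on 2D collagen (SD, n = 4 each). Wnt9a held 3.55 ± 0.893% on 3D and 4.21 ± 1.05% on 2D collagen, and Wnt7a held 0.150 ± 0.0161% on 3D and 0.846 ± 0.257% on 2D collagen. The 15 other ligand genes summed to 0.278% to 1.05% in 3D libraries and 0.256% to 0.309% in 2D libraries. Shares of a whole are tied to each other, and they were not tested.

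**Figure D2:**
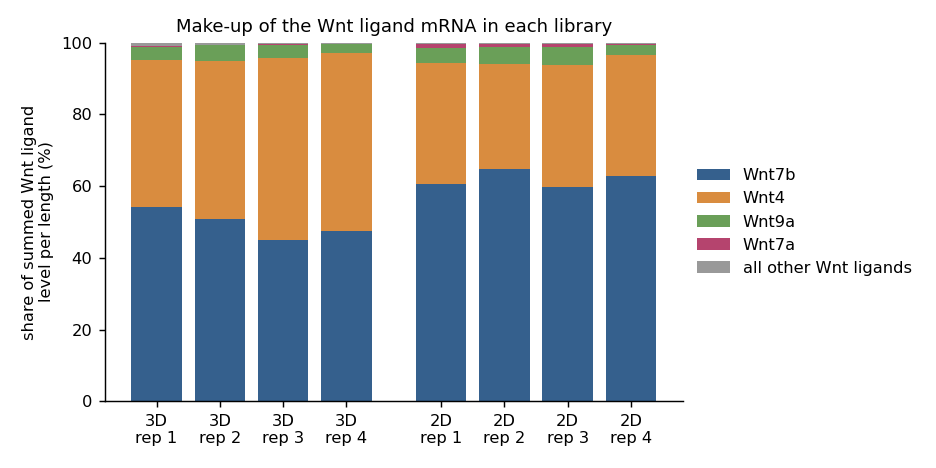
Share of the summed level per length (RPKM) of 19 Wnt ligand genes in each library, in percent, with the 4 3D libraries on the left and the 4 2D libraries on the right. Bars are stacked and add up to 100%. Wnt7b fills 45.1% to 54.2% of each 3D bar and 59.8% to 64.8% of each 2D bar, and Wnt4 most of the rest.

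The order of the levels on 2D collagen was Wnt7b at 166 ± 27.2 RPKM, Wnt4 at 86.4 ± 6.02, Wnt9a at 11.2 ± 2.98 and Wnt7a at 2.25 ± 0.739 (SD, n = 4), with no overlap between neighbours. On 3D collagen Wnt7b, at 55.5 ± 9.86 RPKM, and Wnt4, at 53.3 ± 16.9 RPKM, overlapped and could not be ranked (SD, n = 4). Wnt9a followed at 3.92 ± 0.945 RPKM, apart from both. Wnt7a, at 0.173 ± 0.0576 RPKM on 3D collagen, overlapped with the next of the 10 members, Wnt5b, at 0.118 ± 0.104 RPKM. Wnt16, a ligand outside the member list, stood at 0.131 ± 0.0272 RPKM on 3D and 0.0731 ± 0.0451 RPKM on 2D collagen. Among the members below Wnt7a, the ranges of Wnt5b, Wnt6, Wnt10b and Wnt11 overlapped that of the next of these 4 in the order, in both groups. Wnt5a and Wnt10a lay below them.

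Ratios of 2 ligands within a library (log2 of normalized count + 1) depend little on scaling where both ligands are abundant, and compare the sizes of their changes. All 6 pairs of the 4 tested ligands were compared with an exact two-sided permutation test, in which 4 against 4 libraries cannot give a p under 0.0286. The log2 ratio of Wnt4 to Wnt7b was −0.63, −0.44, −0.06 and −0.17 in 3D replicates 1 to 4, against −1.07, −1.37, −1.05 and −1.12 in 2D replicates 1 to 4. It was therefore higher in every 3D library, by 0.83 on average (exact permutation p = 0.0286, adjusted over 6 pairs 0.0429). Wnt4 to Wnt7a averaged 8.52 ± 0.06 on 3D and 5.72 ± 0.54 on 2D collagen (SD, n = 4 each), a difference of 2.81 with the same exact permutation p. It ran from 8.46 to 8.60 in 3D libraries.

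The log2 ratio of Wnt7a to Wnt7b was −9.09, −8.98, −8.66 and −8.66 in 3D replicates 1 to 4, against −6.41, −6.67, −6.82 and −7.58 in 2D replicates 1 to 4. The difference was −1.98, and that of Wnt7a to Wnt9a was −2.06, each with no overlap (exact permutation p = 0.0286, adjusted 0.0429). Wnt7a entered these pairs only through its 2D libraries, so the p-values of its 3 ratios carry no weight as support. These ratios rest on 42 reads in the 3D libraries, and their size depends on the 1 added to each count. With 5 added, the differences were 2.38 for Wnt4 to Wnt7a, −1.55 for Wnt7a to Wnt7b and −1.66 for Wnt7a to Wnt9a, and with 0.5 added 2.87, −2.04 and −2.13. The ratio of Wnt7b to Wnt9a overlapped between the groups and did not pass, with 4.39 ± 0.38 on 3D and 4.47 ± 0.42 on 2D collagen (SD, n = 4 each, exact permutation p = 0.714). The ratio of Wnt4 to Wnt9a, 4.06 ± 0.49 on 3D and 3.32 ± 0.43 on 2D collagen (SD, n = 4 each), overlapped between the groups (exact permutation p = 0.0857, adjusted 0.103).

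**Figure D3:**
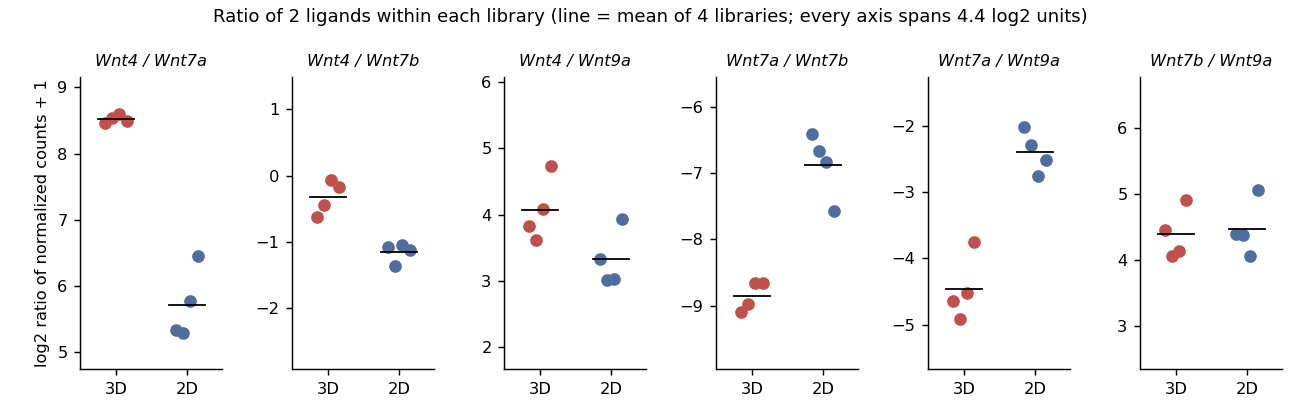
Log2 ratio of the normalized counts (plus 1) of 2 ligands in each library, with 3D libraries on the left and 2D libraries on the right of each panel, lines at the group means and the same span on every axis. The groups are apart in the panels of Wnt4 to Wnt7a, Wnt4 to Wnt7b, Wnt7a to Wnt7b and Wnt7a to Wnt9a, and they overlap in the other 2 panels.

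The other genes of the pathway were tested in the same fit. Among 87 measured genes that are not members, 56 could be tested, of which 3 were lower and 2 higher on 3D collagen (3.39% and 2.33% of all tested genes were). The median log2 fold change of the 56 was 0.09, and that of all tested genes 0.02. At an unadjusted p under 0.05, 13 of the 56 were lower and 10 higher, against 1485 lower and 1380 higher of the 11820. None of the 9 other Wnt ligands could be tested. None of the 11 genes of Wnt secretion was called, and their median was 0.19. The 2 most abundant of them were Snx3, a retromer partner that recycles Wntless, and Sar1a, a GTPase of vesicles that leave the endoplasmic reticulum. Their log2 fold changes were −0.02 for Snx3 (limma adjusted p = 0.957) and −0.38 for Sar1a (0.117). At an unadjusted p under 0.05, 1 secretion gene was lower and 1 higher.

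Receptors and coreceptors had 2 of 14 tested genes lower and 0 higher, with a median log2 fold change of −0.22. Over all tested genes 3.39% were called lower and 2.33% higher. At an unadjusted p under 0.05, 5 were lower and 0 higher, against 1485 lower and 1380 higher of all 11820 tested genes. Fzd2, a Frizzled receptor, had 633, 680, 778 and 892 normalized counts in 3D replicates 1 to 4, against 1401, 2962, 1746 and 1948 in 2D replicates 1 to 4. Its groups did not overlap, and its log2 fold change was −1.39 (SE 0.23, limma adjusted p = 0.0127). Gpr124, now called Adgra2, is known in mouse brain endothelium as the coreceptor through which cells respond to Wnt7a and Wnt7b. It had 207, 370, 345 and 524 normalized counts in 3D replicates 1 to 4, against 1053, 1159, 1106 and 1308 in 2D replicates 1 to 4. All its 3D libraries lay far below all its 2D libraries, and the log2 fold change was −1.74 (SE 0.26, limma adjusted p = 0.00762). Reck, its partner in that coreceptor, was named after its values were seen and had 75.1 ± 12.7 on 3D and 55.9 ± 12.1 normalized counts on 2D collagen (SD, n = 4 each, log2 fold change 0.43, limma adjusted p = 0.353). Without the 3 libraries high in intestine transcripts, the log2 fold change was −1.01 for Fzd2 (limma adjusted p = 0.126) and −1.43 for Gpr124 (0.0902).

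Secreted inhibitors had 3 tested genes of 14 measured, of which none was called, also at an unadjusted p. The most abundant were Dkk3, a member of the Dickkopf family, and Tpbg, a membrane protein that dampens beta-catenin signals. Their log2 fold changes were 0.09 for Dkk3 (limma adjusted p = 0.893) and 0.03 for Tpbg (0.950). The remaining tested gene, Notum, had 387 ± 204 normalized counts on 3D and 196 ± 143 on 2D collagen (SD, n = 4 each). Its groups overlapped, and its log2 fold change was 1.12 (limma adjusted p = 0.307). Of the R-spondin axis, which controls the amount of Frizzled receptors on the cell surface, 4 of 8 genes were tested and 0 called. Lgr6 and Lgr4, receptors for R-spondins, showed log2 fold changes of −0.93 for Lgr6 (limma adjusted p = 0.0662) and 0.09 for Lgr4 (0.916). The other tested genes were Znrf3, at 1.20 with no overlap (limma adjusted p = 0.125), and Rnf43, at 0.52 with overlap (0.316). At an unadjusted p under 0.05, 1 gene of this list was lower and 1 higher, against 1485 and 1380 of all 11820 tested genes.

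Of 18 tested cytoplasmic transducers 1 was lower and 0 higher, and the median log2 fold change was −0.15. At an unadjusted p under 0.05, 6 were lower and 5 higher, against 1485 and 1380 of all 11820 tested genes. Bcl9l, a coactivator that binds beta-catenin, had 2084, 1810, 1552 and 1445 normalized counts in 3D replicates 1 to 4, against 2829, 4491, 4110 and 2798 in 2D replicates 1 to 4. The groups did not overlap, and the log2 fold change was −1.03 (SE 0.20, limma adjusted p = 0.0230). Its adjusted p was 0.0511 to 0.0879 without 3D replicates 2, 3 or 4 or 2D replicate 3 in turn, 0.124 without the 3 libraries and 0.0515 without the 2 high in liver transcripts. Ctnnb1, which encodes beta-catenin itself, averaged 23207 ± 1229 on 3D and 14267 ± 3438 normalized counts on 2D collagen (SD, n = 4 each) with no overlap, and it missed the threshold (log2 fold change 0.73, limma adjusted p = 0.0521). For Csnk1d, a casein kinase of the pathway, it was −0.13 (limma adjusted p = 0.615).

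Among 6 tested feedback targets of beta-catenin, 2 were higher and 0 lower, with a median log2 fold change of 0.76. Over all tested genes 2.33% were called higher and 3.39% lower. At an unadjusted p under 0.05, 3 were higher and 0 lower, against 1380 higher and 1485 lower of all 11820 tested genes. Lgr5, an R-spondin receptor, had 216, 401, 333 and 443 normalized counts in 3D replicates 1 to 4, against 115, 54.9, 137 and 113 in 2D replicates 1 to 4. Its log2 fold change was 1.75 (SE 0.34, limma adjusted p = 0.0225), with no overlap. Tcf7, a transcription factor that pairs with beta-catenin, had 411, 663, 479 and 404 normalized counts in 3D replicates 1 to 4, against 203, 241, 309 and 137 in 2D replicates 1 to 4. Its log2 fold change was 1.16 (SE 0.28, limma adjusted p = 0.0430). Both calls depended on which libraries were included. That of Lgr5 was lost without 3D replicate 2, 3 or 4 (adjusted p 0.0507 to 0.0813) and that of Tcf7 without any library other than 2D replicate 3 (0.0508 to 0.133) or without the filter on low values (0.0514). Without the 3 libraries their log2 fold changes were 1.66 for Lgr5 (limma adjusted p = 0.0889) and 1.10 for Tcf7 (0.237), and without the 2 high in liver transcripts Tcf7 was at 1.29 (0.0904). Axin2, a scaffold that dampens beta-catenin and is widely used as its target gene, was named after its values were seen. It had 274 ± 94.9 on 3D and 135 ± 31.5 normalized counts on 2D collagen (SD, n = 4 each, no overlap) and missed the threshold (log2 fold change 0.99, limma adjusted p = 0.0869). The remaining tested targets overlapped between the groups and were not called. Their log2 fold changes were 0.54 for Lef1 (limma adjusted p = 0.449), −0.03 for Sp5 (0.972) and −0.002 for Apcdd1 (0.997).

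**Figure D4:**
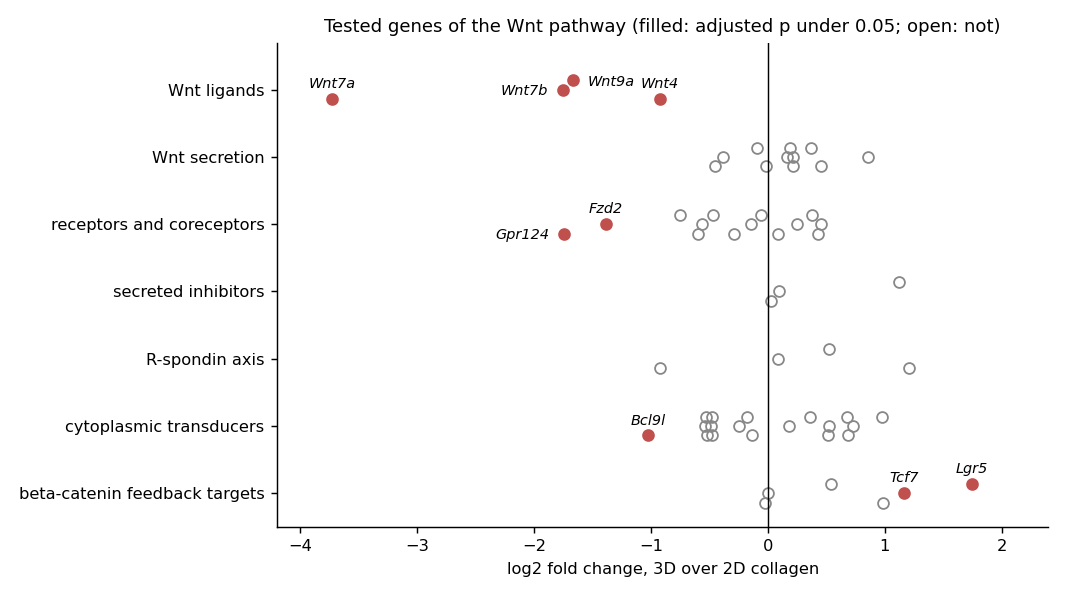
Log2 fold change, 3D over 2D collagen, of every tested gene of the Wnt pathway, by role. Filled points passed the limma threshold (adjusted p under 0.05) and are named, and points are spread up and down for legibility only. The 4 tested ligands, Fzd2, Gpr124 and Bcl9l are filled left of 0, and Tcf7 and Lgr5 right of 0.

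Correlations over the 8 libraries describe which genes followed the ligands most closely. All points share the same libraries and the difference between the groups, so no p is given. Over log2 normalized counts, Wnt7b was most like Klhl22, an adaptor of a ubiquitin ligase (r = 0.996), Hoxb9, a homeobox factor (r = 0.994), and Mvk, mevalonate kinase (r = 0.993). Wnt7a was most like Rasl12, a Ras-like GTPase (r = 0.993), Synpo, an actin-binding protein (r = 0.991), and Card10, a signalling scaffold (r = 0.990). Those 6 genes were themselves called lower. For Wnt4 the closest were Eng, a coreceptor of the TGF-beta family (r = 0.993), Pmvk, phosphomevalonate kinase (r = 0.991), and Ppp1r3f, a regulatory subunit of a phosphatase (r = 0.982), none of which passed the threshold (limma adjusted p 0.0571 to 0.111). With the group means removed, r was 0.974 for Eng and Wnt4, 0.944 for Klhl22 and Wnt7b, and 0.905 for Rasl12 and Wnt7a. These genes were picked for the highest r over the same libraries, so these values carry no weight as support. Between the ligands themselves the correlation over 8 libraries was highest for Wnt7a and Wnt7b (r = 0.978) and lowest for Wnt4 and Wnt9a (r = 0.847). With the group means removed it was highest for Wnt4 and Wnt7b (r = 0.753), with 0.640 for Wnt7a and Wnt7b and 0.305 for Wnt4 and Wnt9a.

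Several Wnt genes lie side by side in the mouse genome, and in each such pair at least 1 gene had hardly any reads. Wnt3a, 16.2 kb from Wnt9a on chromosome 11, had 0 reads in the 3D libraries together and 1 in the 2D libraries. Wnt6 and Wnt10a, 6.19 kb apart on chromosome 1, had 10 and 0 reads in 3D libraries and 20 and 0 in 2D libraries. Wnt10b had 20 reads in 3D and 26 in 2D libraries, and Wnt1, 11.7 kb away on chromosome 15, had 3 in 3D and 19 in 2D libraries. Wnt9a was thus the sole ligand with a Wnt neighbour among the 4 that could be tested.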

How the data were processed

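Total RNA of 8 libraries was sequenced (4 per group, 6 h on collagen). The submitters' processing notes name HTSeq (version 0.6.1p1) for counting, mm10 and DESeq2. Which aligner, annotation and strand setting were used is not given in the sources used here. Each deposited value is a normalized signal of 1 gene: 100% of the values were whole reads divided by 1 size factor per library (tolerance 0.001 reads), and those factors matched DESeq2-type factors recomputed here. They are called normalized counts.

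The members and the pathway lists were chosen with earlier results of these data known. Groups were compared with limma 3.58.1 (in R 4.3.3) on log2 of the deposited value + 1, trended and robust, over the 11820 genes that reached 10 in 4 or more libraries, without covariates. The added 1 shrinks the fold changes of genes with few reads. Adjustment ran over all tested genes, with a threshold of 0.05. Alternatives included edgeR (version 4.0.16) and DESeq2 (version 1.42.0) on the recovered reads, other scalings, filters and pseudocounts, a correction for GC content, a replicate block and fits without some libraries. The computations were tested on simulated data.

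The named genes were the 10 members, the called genes of each other list (where fewer than 2 were called, also its 2 most abundant tested genes), the 3 tested genes most correlated with Wnt4, Wnt7a and Wnt7b, and Wnt neighbours. Reck, Axin2, Lef1, Sp5, Apcdd1, Znrf3, Rnf43, Notum and Wnt16 were named after their values were seen. Gene positions came from GENCODE M21 (GRCm38, the mm10 build), where 22880 of 23337 symbols were found, 1919 of them through an older symbol. At this depth, values of a few reads are imprecise.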

Additional observations from a re-analysis of the deposited data

Results flagged for a closer look

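Wnt5a stood apart in 3D replicate 1, with 2.26 normalized counts (2 reads) where the other 3D libraries had 0. In all, 28 groups of 4 libraries were examined this way. Where the other libraries of a group have 0, any read sets this flag, so it carries no weight here. A chance rate of about 1 in 20 does not hold for such low counts.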

How the results depend on the processing

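Of 23 other settings, 20 gave 3 or 4 lower ligands, and 0 were higher in all 23. The exceptions were 2 lower without 3D replicate 1, 2 without the 2 libraries high in liver transcripts (chosen after seeing the data) and 0 without the 3 libraries high in intestine transcripts, a setting that leaves 2 3D and 3 2D libraries and in which the number of lower genes over the whole table also fell, to 14. None of the 4 tested ligands changed direction in these settings: log2 fold changes ran from −3.98 to −3.21 for Wnt7a, −1.85 to −1.49 for Wnt7b, −1.88 to −1.38 for Wnt9a and −1.04 to −0.52 for Wnt4. Leaving out each library in turn gave 2 to 4 lower ligands.

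Of the other pathway genes, higher calls numbered 4 with TMM scaling, 4 with library size only, 1 without a filter, 5 with DESeq2, 6 with the GC correction, 0 without the 3 libraries and 1 without the 2 high in liver transcripts. Lower calls numbered 7 with DESeq2 and 0 without the 3 libraries. Without each library in turn they were 0 to 3 higher and 2 to 4 lower. The cause was not tested. Over all genes the counts were 708 higher and 871 lower with DESeq2, 481 and 605 with the GC correction, and 498 and 318 with library size only (39.0% lower, against 59.3%). They ran from 44 to 267 higher and 104 to 370 lower without each library in turn.

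Libraries numbered 1 to 4 correlated across the groups at −0.17, 0.37, 0.25 and 0.81. 3D replicates 2, 3 and 4 were most like the 2D library of their own number, a hint of pairing, but 3D replicate 1 was most like 2D replicate 2, and the labels state no pairing, so the block is given as an alternative only. With the replicate block limma kept the 4 lower ligands and called 6 other pathway genes higher and 7 lower, edgeR called 7 higher (over all genes 663 and 742 in limma, 681 and 605 in edgeR), and limma with the block and GC correction 7 higher and 5 lower. A sign-flip test of the ratios over the 4 pairs, which cannot give an exact p under 0.125 before adjustment, left the values at 2.81 for Wnt4 to Wnt7a, 0.83 for Wnt4 to Wnt7b, −1.98 for Wnt7a to Wnt7b and −2.06 for Wnt7a to Wnt9a, without a call. The uncalled ratio of Wnt7b to Wnt9a changed sign without 3D replicate 2 (0.02) and without 2D replicate 4 (0.11), in a range of −0.26 to 0.11 when libraries were left out. Depth limits the 6 ligands with few reads.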
